A study of Oryctolagus cuniculus with 16 samples.

Results

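A group of 10 genes of cartilage matrix and of the growth plate was listed by symbol, *SOX9*, *ACAN*, *COMP*, *MATN1*, *MATN3*, *HAPLN1*, *PRG4*, *EPYC*, *IHH* and *PTH1R*, and their counts in femoral head tissue were compared between rabbits with Perthes disease and control rabbits. Of these 10 genes, 9 were read from the gene table of 20255 genes, and *COMP* was not analysed here. *MATN1* was too low to be tested, so 8 of the 15305 tested genes were members of the group. The study used 5 rabbits with Perthes disease and 3 controls, with 1 total RNA library for each rabbit. The labels describe the tissue as femoral head and give the genotype of the groups as Perthes' disease and as wild type. The stock was wild type for all animals as the methods describe it. The disease was made by surgery at 8 weeks of age, in which the neck of the femur was tied off with a suture and the ligamentum teres was cut to stop the blood supply of the epiphysis. Neither strain, sex, the time from surgery to sampling nor any surgery of the controls is given in the sources used here. The model is therefore one of surgical loss of blood supply, and no allele separates the groups.

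Growth plate and epiphyseal cartilage are built by chondrocytes, which lay down a collagen II network filled with aggrecan. Aggrecan is held on hyaluronan chains by link protein, and matrilins and small leucine-rich proteoglycans connect the collagen and proteoglycan parts. As chondrocytes leave proliferation they secrete Indian hedgehog, which keeps up the supply of parathyroid hormone-related protein, and that protein acts through the receptor encoded by *PTH1R* to hold back hypertrophy. Lubricin, by contrast, is made at the joint surface and by the synovial lining and keeps the surfaces sliding.

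The libraries held between 26757087 and 29461482 counts, so 1 count corresponded to 0.0339 to 0.0374 CPM before scaling, CPM being counts relative to the library total. CPM below are scaled by the trimmed mean of M-values (TMM) factors of edgeR. Perthes rabbit 4 stood apart from the other 7 rabbits, at -78.4 on the second principal component of log2 CPM against -7.51 to 27.5, and results are therefore also given without it. The tissue label was checked against 9 chondrocyte markers, of which 8 were read from the table, and each of the 8 had counts in all 8 rabbits. Their summed level ranged from 32093 to 130787 CPM in Perthes rabbits, with the highest sum in Perthes rabbit 4, and from 45307 to 62016 CPM in controls. *COL2A1* made up most of each sum, with 29008 of 32093 CPM in Perthes rabbit 1 and 116594 of 130787 CPM in Perthes rabbit 4. Perthes rabbit 4 was the highest of the 8 rabbits for 6 of the 8 markers, and for *MATN4* the lowest of the Perthes rabbits.

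No member was called higher or lower in Perthes rabbits. In edgeR's quasi-likelihood test with Benjamini-Hochberg adjustment over all 15305 genes, 0 of the 8 tested members passed an adjusted p of 0.05 in either direction, against 6.21% of all genes tested that were called higher and 8.86% that were called lower. DESeq2 also called 0 of 8. The log2 fold change, Perthes minus control, was positive for 7 of the 8 members and negative for *PRG4*, with a median of 1.0 over the 8 members and of 0.0249 over all genes tested, of which 51.6% were positive. An unadjusted p below 0.05 was reached by 3 of 8 members in edgeR's test and by 5 of 8 in DESeq2, and by 31.9% of all genes tested in edgeR's test. For 0 of 8 members did every Perthes rabbit lie above, or every Perthes rabbit lie below, every control, while 11.2% of all genes tested lay wholly above and 13.9% wholly below. In whole tissue, fewer cells of a type and less RNA per cell cannot be told apart.

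**Figure D1:**
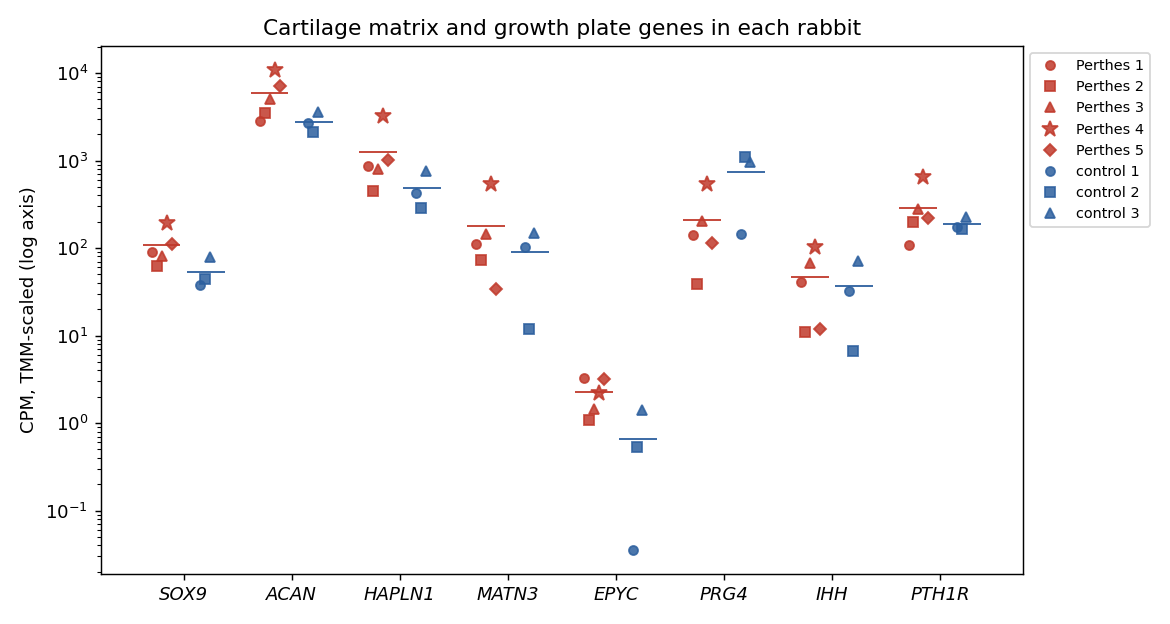
Level of the 8 tested members in each rabbit, in TMM-scaled CPM on a log axis, with a red symbol for each of the 5 Perthes rabbits, a blue symbol for each of the 3 controls and a line at each group mean. The star of Perthes rabbit 4 is the highest of the 8 rabbits for 6 of the 8 genes, and red and blue symbols overlap for every gene.

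The positive median rested to a large part on a single animal. Perthes rabbit 4 held the highest level of all 8 rabbits in 6 of the 8 members and the highest of the Perthes rabbits in 7, *EPYC* being the exception. It was more than 2 times the median of the other 4 Perthes rabbits in 7 of the 8 members, from 2.22 times for *SOX9* to 5.8 times for *MATN3*. Without Perthes rabbit 4, the median log2 fold change of the members was 0.38, with 6 of 8 positive. Among controls, rabbit 3 was the highest in 7 of the 8 members and rabbit 2 the lowest in 5. Leaving out Perthes rabbit 4 and control rabbit 2 together, a choice made after the values were seen, gave a median of 0.20 with 4 of 8 positive.

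*SOX9* (gene 100008944) encodes the transcription factor that starts and maintains the chondrocyte programme. Its level was 90.8, 62.6, 81.3, 191 and 110 CPM in Perthes rabbits 1 to 5 and 37.6, 44.0 and 79.8 CPM in control rabbits 1 to 3. Perthes rabbit 2 lay below control rabbit 3, and the other 4 Perthes rabbits lay above all controls. On the log2 scale the fold change was 0.99 (SE 0.40, adjusted p = 0.120). Its partners *SOX5* and *SOX6*, which act with *SOX9* on cartilage enhancers, did not share a direction, with log2 fold changes of 0.66 (adjusted p = 0.305) and -0.85 (adjusted p = 0.0840) that did not pass the test. *SOX6* became lower in Perthes rabbits once Perthes rabbit 4 was left out, at -1.16 (SE 0.17, adjusted p = 0.00792), a result that was picked out after its values were seen. In Perthes rabbits 1 to 5 *SOX6* was at 36.3, 34.7, 30.7, 71.3 and 29.3 CPM, and in the controls at 59.3, 77.5 and 82.2 CPM, so that Perthes rabbit 4 alone among the Perthes rabbits reached the range of the controls.

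*ACAN* (gene 100009079), the core protein of the large proteoglycan that gives cartilage its stiffness under load, was at 2860, 3479, 5110, 10842 and 7063 CPM in the Perthes rabbits and at 2660, 2131 and 3543 CPM in the controls. Perthes rabbits 3, 4 and 5 lay above every control, and Perthes rabbits 1 and 2 lay within the control range. Its log2 fold change was 1.08 (SE 0.46, adjusted p = 0.146), and it was 0.74 (SE 0.36, adjusted p = 0.195) without Perthes rabbit 4. *HAPLN1* (gene 100355866) encodes the link protein that fixes aggrecan to hyaluronan. It was at 855, 448, 796, 3226 and 1011 CPM in the Perthes rabbits and at 422, 288 and 758 CPM in the controls. Only Perthes rabbit 2 overlapped the controls, and Perthes rabbit 4 alone held 50.0% of the *HAPLN1* counts of the 5 Perthes libraries. Its log2 fold change was 1.37 (SE 0.65, adjusted p = 0.178) with all rabbits and 0.67 (SE 0.39, adjusted p = 0.264) without Perthes rabbit 4.

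The matrilins are adaptor proteins that bind collagen fibrils and aggrecan. *MATN3* (gene 100337962) was the most scattered of the tested members within the Perthes group, at 112, 72.3, 144, 533 and 34.0 CPM, a 15.7-fold range. The controls, at 104, 11.8 and 150 CPM, covered a 12.7-fold range, and the groups overlapped broadly. The log2 fold change of 1.01 (SE 0.96, adjusted p = 0.501) became 0.03 (SE 0.75) without Perthes rabbit 4 and -0.49 (SE 0.51) when control rabbit 2 was left out as well. *MATN1* (gene 100349419), the matrilin of mature hyaline cartilage, had 2, 1, 2, 5 and 2 counts in the Perthes rabbits and 6, 1 and 0 in the controls. At that depth no difference was detectable, the low-count filter removed the gene, and no fold is given. *EPYC* (gene 100356959), a small leucine-rich proteoglycan of growth plate cartilage, was also at the low end of the counts, with 98, 29, 39, 60 and 93 counts in Perthes rabbits and 1, 15 and 42 in controls. These correspond to 3.31, 1.09, 1.43, 2.18 and 3.17 CPM against 0.0357, 0.529 and 1.40 CPM. In scaled CPM, all Perthes rabbits except rabbit 2 lay above the controls. Perthes rabbit 3 did so narrowly, with 39 counts against 42 in control rabbit 3, and that order rested on the scaling. On the log2 scale the fold change was 1.76 (SE 0.80, adjusted p = 0.163). It moved with the controls, to 1.21 (SE 0.59, adjusted p = 0.249) without control rabbit 1, which held a single count, and to 2.96 (SE 0.89, adjusted p = 0.0625) without control rabbit 3.

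*PRG4* (gene 100347000), which encodes lubricin, was the only tested member with a negative log2 fold change. It was at 142, 38.7, 205, 538 and 113 CPM in the Perthes rabbits and at 144, 1098 and 955 CPM in the controls. Control rabbits 2 and 3 lay above every Perthes rabbit, whereas control rabbit 1 lay within the Perthes range. The log2 fold change was -1.82 (SE 0.80), or 3.53 times lower, with an adjusted p of 0.154. Without Perthes rabbit 4 it was -2.56 (SE 0.72) and passed the test, with an adjusted p of 0.0439 in edgeR's test. It was negative in each of the fits that left out 1 rabbit, from -2.56 to -1.41, and in the other 7 of those fits the adjusted p lay between 0.118 and 0.390. The 6 synovial lining markers summed to 110 to 166 CPM in Perthes rabbits and to 138 to 169 CPM in controls, and all 6 had counts in every rabbit. Of the 6, 4 had a positive log2 fold change. Every Perthes rabbit lay above every control for 2 of them and below every control for 1, against 11.2% and 13.9% of all genes tested. Of the 6 markers, 1 was called higher and 1 lower, against 6.21% and 8.86% of all genes tested. *ITGB8*, an integrin subunit, was called higher (log2 fold change 1.76, SE 0.45, adjusted p = 0.0326). *CD55*, a complement regulator, was called lower, at 42.2 to 70.2 CPM against 95.2 to 117 CPM (log2 fold change -0.89, SE 0.18, adjusted p = 0.0170). The part of the lining markers in the *PRG4* values was not tested.

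*IHH* (gene 100008942), the hedgehog ligand of prehypertrophic chondrocytes, was at 41.4, 11, 68.2, 103 and 11.9 CPM in Perthes rabbits and at 32.3, 6.73 and 70.5 CPM in controls. The groups overlapped over nearly the whole range, and neither group stood higher. The log2 fold change of 0.37 (SE 0.86, adjusted p = 0.798) turned to -0.14 without Perthes rabbit 4 and to -0.13 without control rabbit 2. *PTH1R* (gene 100008785), the receptor for parathyroid hormone and its related protein, is made by prehypertrophic chondrocytes and by osteoblasts. It was at 108, 200, 277, 645 and 220 CPM in Perthes rabbits and at 175, 166 and 229 CPM in controls. The controls lay close together, in a 1.38-fold range, and the Perthes rabbits fell on both sides of them in a 5.96-fold range. For *PTH1R* the log2 fold change was 0.61 (SE 0.50, adjusted p = 0.431) with all rabbits and 0.08 (SE 0.31, adjusted p = 0.873) without Perthes rabbit 4.

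**Figure D2:**
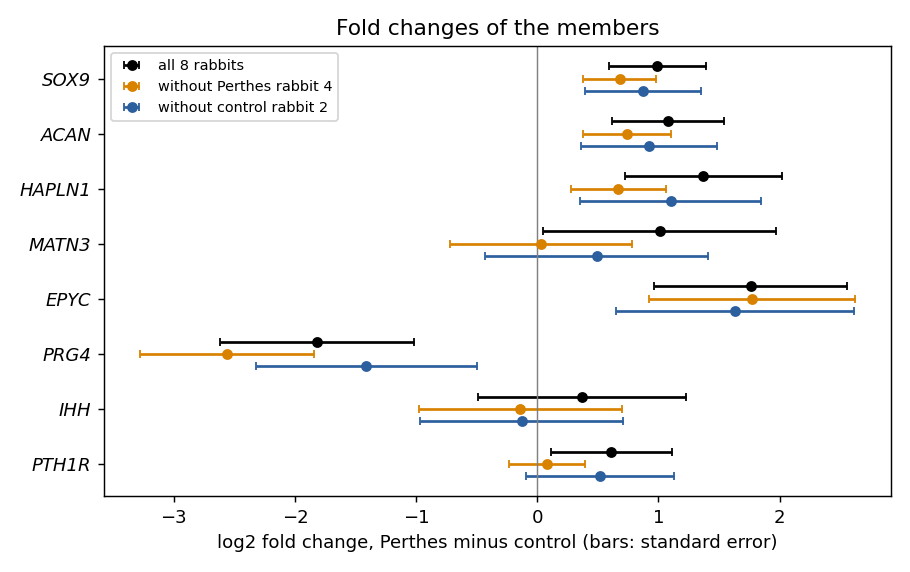
Log2 fold change, Perthes minus control, of the 8 tested members in edgeR's fit with all 8 rabbits (black), without Perthes rabbit 4 (orange) and without control rabbit 2 (blue), with bars for the standard error. *PRG4* moves away from 0 to -2.56 without Perthes rabbit 4, while *MATN3* and *PTH1R* move close to 0 and *IHH* crosses it.

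Since the levels of cartilage genes differed among rabbits, the members were also set against *ACAN* within each library, which does not depend on scaling. The log2 ratio of counts, with 0.5 counts added to each gene, was compared between groups with a two-sided exact permutation test over the 56 divisions of the rabbits into 5 and 3, for which 0.0357 is the smallest p it can give. Of the 8 ratios tested, 0 passed after Benjamini-Hochberg adjustment. At that floor a ratio could pass only if most of the other ratios reached it too. The adjusted test could therefore not decide on single ratios.

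Lubricin and the receptor were the 2 members whose ratio to *ACAN* did not overlap between the groups. No such ratios were made over all genes, so the usual share without overlap is not known. In CPM, 11.2% of all genes tested lay wholly above and 13.9% wholly below the controls. The log2 ratio of *PRG4* to *ACAN* was -4.34, -6.49, -4.64, -4.33 and -5.96 in Perthes rabbits and -4.21, -0.96 and -1.89 in controls. The means were -5.15 ± 1.01 (SD, n = 5) and -2.35 ± 1.67 (SD, n = 3), a difference of -2.80 (exact permutation p = 0.0357, adjusted p = 0.143). Control rabbit 1 lay just above Perthes rabbits 1 and 4. The log2 ratio of *PTH1R* to *ACAN* was -4.72, -4.12, -4.21, -4.07 and -5.01 in Perthes rabbits and -3.93, -3.68 and -3.95 in controls, with means of -4.42 ± 0.42 (SD, n = 5) and -3.85 ± 0.15 (SD, n = 3). That difference was -0.57 (exact permutation p = 0.0357, adjusted p = 0.143). When each rabbit was left out in turn, the differences ranged from -3.73 to -2.10 for *PRG4* and from -0.66 to -0.43 for *PTH1R*. *SOX9*, *MATN3* and *HAPLN1* had the smallest differences of the 8 ratios. The ratio of *SOX9* to *ACAN* was -5.72 ± 0.42 (SD, n = 5) in Perthes rabbits and -5.74 ± 0.36 (SD, n = 3) in controls, and that of *HAPLN1* to *ACAN* was -2.39 ± 0.59 and -2.59 ± 0.34. These differed by 0.02 (exact permutation p = 0.964) and 0.20 (exact permutation p = 0.607), and the ratios of *MATN3* by 0.08 (exact permutation p = 0.929). For *EPYC*, *IHH* and *MATN1* the differences were 1.63, -0.54 and -0.27, with groups that overlapped.

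*ACAN* was set in the same way against *COL2A1*, the gene of the main cartilage collagen. Its log2 ratio to *COL2A1* was -3.34, -3.40, -3.74, -3.43 and -2.86 in Perthes rabbits and -4.01, -4.34 and -4.02 in controls, so that relative to collagen II the aggrecan counts were higher in every Perthes rabbit than in any control. The means were -3.36 ± 0.32 (SD, n = 5) and -4.12 ± 0.19 (SD, n = 3), a difference of 0.77 that did not pass after adjustment (exact permutation p = 0.0357, adjusted p = 0.193 over 9 ratios). The same floor limited this adjusted test, and no such ratio was made over all genes. Measured against *COL2A1*, the receptor no longer stood apart, with a difference of 0.20 (exact permutation p = 0.321). The differences were -2.03 for *PRG4*, 0.79 for *SOX9* and 0.97 for *HAPLN1*, none of which separated the groups. A ratio within a library shows unequal change of 2 genes and not which of them changed.

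**Figure D3:**
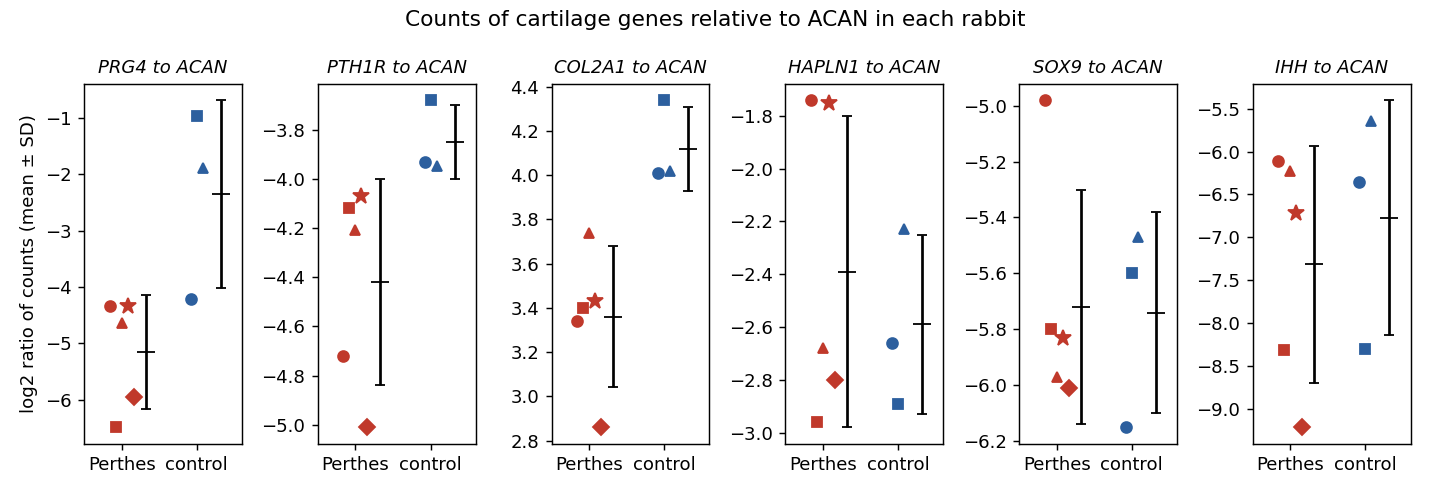
Log2 ratio of the counts of 6 cartilage genes to those of *ACAN* in each rabbit (red for Perthes, blue for control, symbols as in the plot of levels), with the mean ± SD of each group beside the points. For *PRG4*, *PTH1R* and *COL2A1* every Perthes rabbit lies below every control, and for *HAPLN1*, *SOX9* and *IHH* the groups overlap.

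Members differed in how alike their patterns were over the rabbits. Likeness was measured as the mean absolute difference of log2 CPM over the 8 rabbits, with each gene centred on its own mean, so that 0 is an identical pattern. *SOX9* lay 0.268 from *HAPLN1* and 0.282 from *ACAN*, where the median distance of all tested genes to *SOX9* was 0.648. *IHH* and *MATN3* formed another close pair at 0.504, against medians of 1.28 and 1.22. *PRG4* had no close member, the nearest being *PTH1R* at 1.21.

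Named genes outside the group that came closest included several cartilage genes. For *SOX9* these were *PRKCA*, a protein kinase C, at 0.109, *UGDH*, which makes the glucuronate of glycosaminoglycan chains, at 0.132, and *FMOD*, the collagen-binding proteoglycan fibromodulin, at 0.137. For *ACAN* they were *SPSB1*, *TIMP3* and *RGMA*, at 0.170 to 0.209, of which *TIMP3* is an inhibitor of the enzymes that cut aggrecan. *COL11A1*, a chain of the collagen inside cartilage fibrils, was 0.182 from *HAPLN1*, between *GFPT2* at 0.141 and *RELL2* at 0.218. *COL10A1*, the collagen of hypertrophic chondrocytes, was the nearest to *IHH* at 0.370, followed by *JPH1* and *PRKG2*, and *JPH1* was also among the 3 nearest to *MATN3*, with *ARMH4* and *EFHD1*. *COL2A1* was the nearest to *PTH1R* at 0.173, followed by *PCSK6* and *MFGE8*. The low-count *EPYC* was nearest to *DUSP14*, *TBX18* and *EMP1*. For *PRG4* even the nearest, *GABRE*, *GNAL* and *CHAD*, were 0.655 or more away. These distances describe 8 libraries that share the same group difference and the same outlying animal, and they are given with no test.

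Other genes of cartilage were read from lists written by hand. Of 30 further cartilage matrix and chondrocyte genes, 27 were read from the table and 26 were tested. Of the 26, 1 was called higher and 0 lower, against 6.21% and 8.86% of all genes tested. Their median log2 fold change was 0.86. *MATN4*, another matrilin, was the gene that rose. It was at 60, 48.8, 94.9, 27 and 34.2 CPM in Perthes rabbits and at 15.9, 14.0 and 15.3 CPM in controls, so every Perthes rabbit lay above the controls, and Perthes rabbit 4 was the lowest of the Perthes rabbits. Its log2 fold change was 1.81 (SE 0.39, adjusted p = 0.0198). The call was lost without control rabbit 1 (adjusted p = 0.0772) and without control rabbit 2 (adjusted p = 0.0818), and held without each of the other 6 rabbits. *COL2A1* showed no such difference, at 29008 to 116594 CPM in Perthes rabbits and 42826 to 57453 CPM in controls (log2 fold change 0.34, SE 0.50, adjusted p = 0.671), and its log2 fold change turned to -0.04 without Perthes rabbit 4. The median of the 26 genes dropped to 0.25 without that rabbit.

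Genes that build, sulfate and supply glycosaminoglycan chains, hyaluronan included, numbered 27. Of these, 25 were tested, 4 were called higher and 0 lower, against 6.21% and 8.86% of all genes tested. Their median log2 fold change was 0.39, against 0.0249 over all genes. *HAS2*, a hyaluronan synthase, was at 22.2 to 64.7 CPM in Perthes rabbits and 8.93 to 23.5 CPM in controls (log2 fold change 1.75, SE 0.44, adjusted p = 0.0305). *DSE*, which turns chondroitin into dermatan sulfate, was at 72.2, 59.5, 75.9, 68.9 and 72.6 CPM against 38, 28 and 36.6 CPM, with no overlap. It rose by 1.03 on the log2 scale (SE 0.16, adjusted p = 0.0122). *CHSY3* and *CHPF*, which take part in lengthening chondroitin chains, rose by 1.02 (SE 0.19, adjusted p = 0.0136) and 0.81 (SE 0.22, adjusted p = 0.0415). The count of 4 was 6 without Perthes rabbit 1, 2 without Perthes rabbit 3 or 5, 1 without control rabbit 1 and 0 without control rabbit 2. Over the 8 fits that each left out 1 rabbit, *DSE* was called in 7, *CHSY3* in 6, *HAS2* in 3 and *CHPF* in 2, with adjusted p of up to 0.117 for *HAS2* and 0.156 for *CHPF*.

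Proteases and hyaluronidases that cut the cartilage matrix, listed with inhibitors and the receptor *CD44*, gave the most calls. All 16 were tested, 9 were called higher and 0 lower, against 6.21% of all genes called higher, and all 16 log2 fold changes were positive, with a median of 1.31. Every Perthes rabbit lay above every control for 11 of the 16, against 11.2% of all genes tested. *ADAMTS15*, an aggrecan-cutting protease, was at 17.6, 12.2, 14.0, 15.6 and 12.7 CPM in Perthes rabbits and at 1.61, 3.88 and 2.53 CPM in controls. Its lowest Perthes value was thus well above the highest control, and the log2 fold change was 2.43 (SE 0.30, adjusted p = 0.0118). The aggrecanase *ADAMTS4* was at 26.2, 36.3, 31.7, 32.5 and 38.5 CPM against 6.61, 13.9 and 13.7 CPM (log2 fold change 1.53, SE 0.27, adjusted p = 0.0133). *ADAMTS5*, the other main aggrecanase, had the same log2 fold change of 1.53 but a wider error (SE 0.54, adjusted p = 0.0862), with 53.0, 59.3, 45.9, 171 and 38 CPM in Perthes rabbits against 14.1, 30.4 and 31.6 CPM in controls. It therefore did not pass the test, although every Perthes rabbit lay above the controls. *HTRA1*, a serine protease that cuts aggrecan and fibronectin, rose by 1.64 (SE 0.46, adjusted p = 0.0422), from 162 to 380 CPM in controls to 470 to 1374 CPM in Perthes rabbits.

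*MMP3*, or stromelysin, had the largest log2 fold change of the list, at 8.17 (SE 1.95, adjusted p = 0.0258). It was nearly absent from controls, at 0.0357, 0.0353 and 0.299 CPM, and was at 15.2, 1.91, 2.31, 131 and 37.7 CPM in Perthes rabbits, so the size of the fold rests on a few control counts. It was 6.77 without Perthes rabbit 4 and 9.88 without control rabbit 3, and the call was lost without Perthes rabbit 5 (adjusted p = 0.0539) and without control rabbit 1 (0.108), 2 (0.0995) or 3 (0.0530). The other called genes of the list were *ADAMTS7*, *ADAMTS9*, *MMP14*, *HYAL1* and *HYAL2*. The count of 9 was 4 without Perthes rabbit 3, 3 without Perthes rabbit 5, 2 without control rabbit 1 and 0 without control rabbit 2, and it was 10 without Perthes rabbit 4. *ADAMTS15* and *ADAMTS4* were called in 7 of the 8 fits that left out 1 rabbit, and without control rabbit 2 their adjusted p was 0.0519. *HTRA1* was called in 3 of the 8, with an adjusted p of up to 0.143, *ADAMTS7* in 6, *MMP14*, *HYAL1* and *HYAL2* in 4 each and *ADAMTS9* in 1. Several of these proteases are also made outside cartilage. The 6 osteoclast markers summed to 1529 to 4369 CPM in Perthes rabbits against 717 to 1259 CPM in controls, with 2 of 6 called higher. The 6 macrophage markers summed to 406 to 1414 CPM against 355 to 376 CPM, with 3 of 6 called higher. Over all genes tested, 6.21% were called higher. Perthes rabbit 4 had the lowest sum of the Perthes rabbits for both lists. Their part in the protease values was not tested.

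Around *IHH* and *PTH1R*, 24 further genes of hedgehog, parathyroid hormone-related protein and natriuretic peptide signals were listed and 21 were tested. Of the 21, 1 was called higher, *HHAT*, and 0 lower, against 6.21% and 8.86% of all genes tested. Their median log2 fold change was 0.41. *HHAT* encodes the acyltransferase that attaches palmitate to hedgehog ligands. It was at 15.3, 16.2, 17.2, 19.4 and 17.5 CPM in Perthes rabbits and at 5.57, 8.43 and 9.15 CPM in controls, with no overlap (log2 fold change 1.15, SE 0.20, adjusted p = 0.0133). Without control rabbit 2 its adjusted p was 0.0530. The ligand *PTHLH* was low in both groups, at 1.05 to 3.53 CPM against 0.822 to 1.96 CPM (log2 fold change 0.70, adjusted p = 0.311). The hedgehog targets *PTCH1*, the receptor, and *GLI1*, the transcription factor, are commonly read as a measure of hedgehog response. Their log2 fold changes were 0.38 (SE 0.56, adjusted p = 0.670) and 0.04 (SE 0.52, adjusted p = 0.966), and their groups overlapped. *FGFR3* was not analysed here.

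Of 15 genes of chondrocyte hypertrophy and cartilage mineralization, all tested, edgeR called 0 higher and 0 lower, against 6.21% and 8.86% of all genes. An unadjusted p below 0.05 was reached there by 2, *IBSP* and *MGP*, against 31.9% of all genes tested. DESeq2 called both of them higher, as it did 1700 of the 17451 genes it tested. *IBSP* is also on the list of osteoblast and osteocyte markers. The median log2 fold change of the 15 genes, 0.39, was 0.05 without Perthes rabbit 4. *COL10A1* was at 1548, 434, 2121, 7774 and 775 CPM in Perthes rabbits and at 906, 253 and 2851 CPM in controls, so only Perthes rabbit 4 lay above the control range. Its log2 fold change of 0.92 (SE 1.01, adjusted p = 0.562) became -0.13 without that rabbit.

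**Figure D4:**
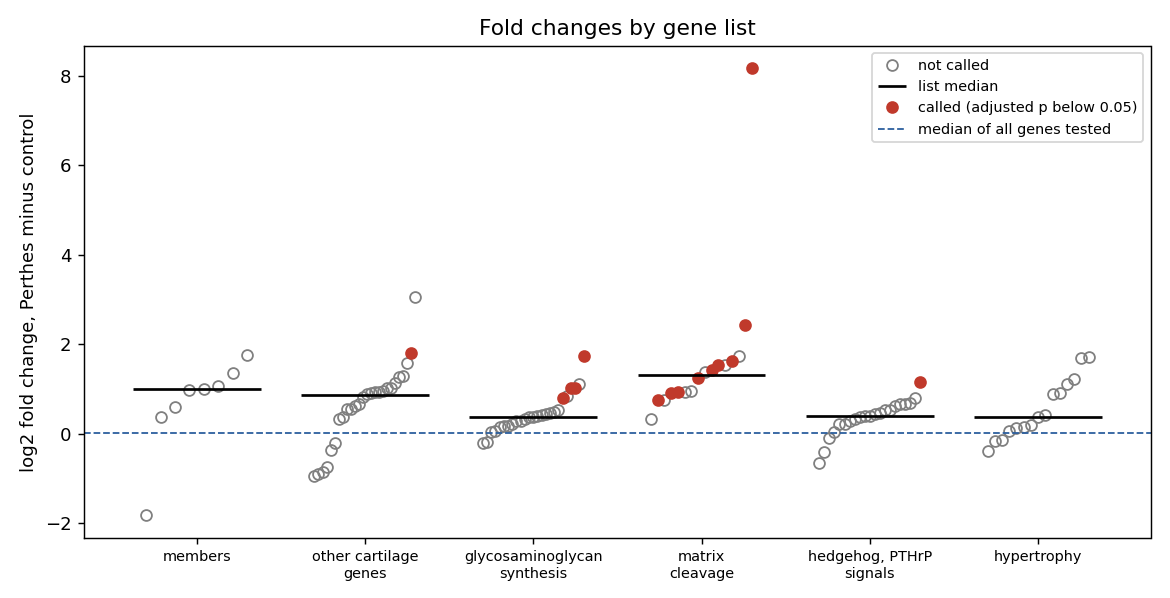
Log2 fold change, Perthes minus control, of each tested gene of the group and of 5 further lists, with filled red points for genes called at an adjusted p below 0.05, a black line at each list's median and a dashed line at the median of all genes tested, 0.0249. The matrix cleavage list holds 9 of the 15 called points, and the members hold 0.

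Marrow and immune markers differed between the groups and therefore moved with the comparison of every member. The 6 erythroid markers summed to 32.4 to 2249 CPM in Perthes rabbits and 4804 to 5428 CPM in controls, and the 6 neutrophil markers to 24.8 to 1776 CPM against 6701 to 22125 CPM. All 12 lay lower in every Perthes rabbit than in any control, as did 13.9% of all genes tested. Of the erythroid markers 1 and of the neutrophil markers 3 were called lower, against 8.86% of all genes tested. Osteoblast and osteocyte markers overlapped, at 1418 to 2412 CPM against 858 to 1794 CPM, with 0 of 7 called by edgeR. An unadjusted p below 0.05 in edgeR's test was reached by 2 of 7, against 31.9% of all genes tested. The part of these lists in the members' values was not tested. The sums of 4 tendon, 4 muscle and 4 adipocyte markers also overlapped between the groups, at 112 to 303 against 43.8 to 181 CPM, 3.13 to 16.3 against 5.25 to 60.7 CPM and 62.5 to 698 against 234 to 473 CPM.

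**Figure D5:**
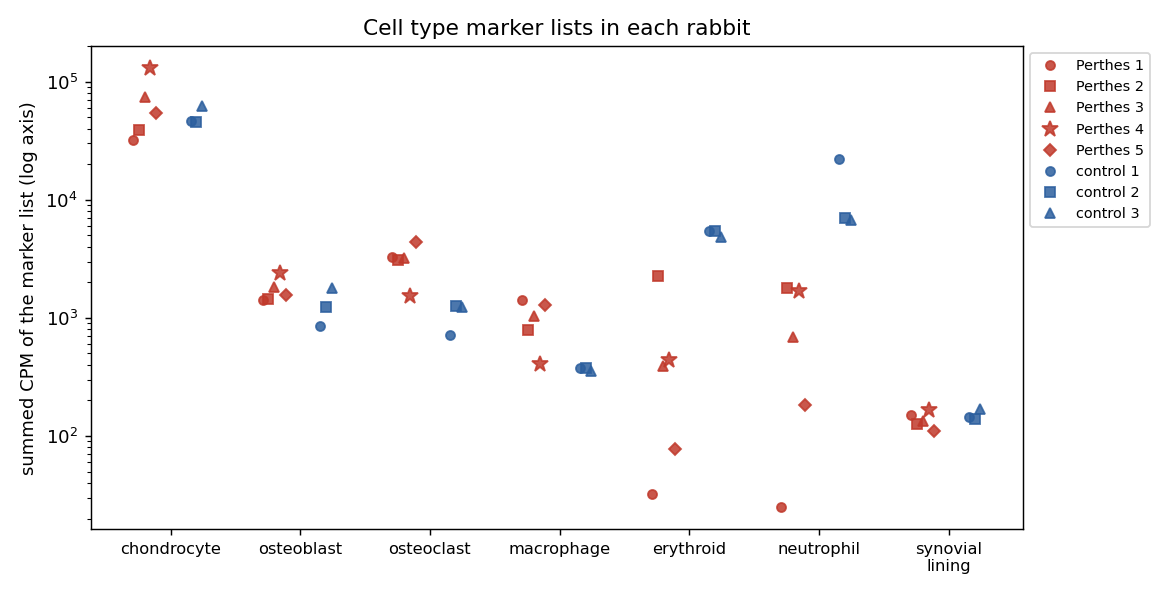
Summed TMM-scaled CPM of 7 cell type marker lists in each rabbit, on a log axis, with red symbols for Perthes and blue for control rabbits. Erythroid and neutrophil sums are lower in every Perthes rabbit, and osteoclast and macrophage sums are higher. The chondrocyte sum, which is mostly *COL2A1*, is highest of the 8 rabbits in Perthes rabbit 4, at 130787 CPM.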

How the data were processed

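Ribosomal RNA was removed from 5 µg of femoral head RNA per rabbit, and directional libraries were read as pairs of 150 bases. The authors filtered reads with SOAPnuke, mapped them with HISAT2 2.0.4 and deposited expected counts per gene from RSEM 1.1.17 and HTSeq 1.99.2, the versions being those in the submitters' processing notes. Whether strand was used in counting is not given in the sources used here. Another 8 columns of per-sample values repeated those used and were left out, and 10.0% to 10.7% of values per library were not whole. The small RNA files that the authors deposited hold counts and RPM per miRNA, made with cutadapt and miRDeep2, and Perthes libraries 1 to 3 were used.

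Counts were rounded, scaled by TMM and filtered with filterByExpr by group, and 15305 genes were tested in all 8 libraries with edgeR 4.0.16 in R 4.3.3 (quasi-likelihood, Benjamini-Hochberg, called at an adjusted p below 0.05). The standard error is the log2 fold change over the square root of F. Log2 CPM used a prior count of 2. DESeq2 1.42.0, other scalings and filters, the replicate number as a block, thresholds and leaving out each rabbit were the alternatives. Exact tests used scipy 1.17.1 and figures matplotlib 3.10.9. Both count tests were tried on simulated counts with the same spread setting for all genes and no outlying rabbit. That setting differs from the real libraries, so it does not show how the tests perform on them. The libraries held 26757087 counts or more, and counting error was not set against the spread between rabbits. The labels call samples separate rabbits, and the third control, numbered 3 in its code and otherwise in its title, was taken as control rabbit 3.

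The members and lists were chosen with earlier results of these data known. Named were all members, up to 4 called genes of largest log2 fold change per list, *COL2A1*, *COL10A1*, *PTHLH*, *PTCH1*, *GLI1*, *FGFR3*, *ADAMTS4* and *ADAMTS5*, the 3 tested genes with a name most like each member, and both arms of miR-140. *SOX5*, *SOX6*, *IBSP*, *MGP*, *ITGB8*, *CD55* and the other called genes of the protease list were named after their values were seen. No genome of the files' build was used, so no coordinates or sequences are given.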

Additional observations from a re-analysis of the deposited data

Results flagged for a closer look

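Dixon's criterion (gap over range above 0.71) was applied to the unlogged CPM of the Perthes rabbits. It set Perthes rabbit 4 apart from the other 4 in 7 of the 25 genes examined, and no other rabbit in any of them. Chance marks about 1 in 20 groups of normally distributed values. Unlogged CPM can be skewed, so that rate may not hold here, and no result on log2 CPM is given. The 25 genes were also measured in the same animals. The 3 members were *MATN1*, at 0.182 CPM from 5 counts, *MATN3*, at 533 CPM, and *HAPLN1*, at 3226 CPM. The other 4 were *MMP3* at 131 CPM, *ADAMTS5* at 171 CPM, *PTCH1* at 246 CPM and *COL10A1* at 7774 CPM. In each case the value was the highest of the Perthes rabbits.

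In small RNA libraries of Perthes rabbits 1 to 3, which no comparison used, miR-140-5p, a miRNA known for its high level in cartilage, was at 1543, 1067 and 1584 RPM, from 33311, 23063 and 34824 reads. It ranked 24, 31 and 23 among the 866 miRNAs listed. The other arm, miR-140-3p, was at 133, 97.3 and 185 RPM, so that miR-140-5p took 92.1%, 91.6% and 89.5% of the reads of both arms. Both were counted well above the limit that a count of 0 allows, and no control library was used. *WWP2*, the gene whose intron holds miR-140, had a log2 fold change of 0.37 in total RNA (edgeR's adjusted p = 0.401).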

How the results depend on the processing

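Over all genes, 951 were called higher and 1356 lower. DESeq2 called 1700 and 1917, and leaving out 1 rabbit gave 0 to 1267 and 0 to 1628: 385 and 646 without Perthes rabbit 3, 351 and 550 without Perthes rabbit 5, 73 and 184 without control rabbit 1, and 0 and 0 without control rabbit 2 (1624 and 2098 at an unadjusted p below 0.05). With library totals alone, 28.5% of calls were higher, against 41.2% with TMM. The study's thresholds gave 0 calls in edgeR, in every list too, where the smallest adjusted p was 0.0118. In DESeq2, a choice made after seeing the data, they gave 101 and 95 calls, with 0 members, 2 proteases (*ADAMTS15* and *MMP3*) and 0 genes of the other 4 lists. The study, which also used DESeq2, reports more genes in each direction at these thresholds, and the reason was not tested.

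No member was called under any alternative except *PRG4*, at -2.56 without Perthes rabbit 4, so that leaving out 1 rabbit gave 0 to 1 lower calls. Of 120 log2 fold changes of members under alternatives, 113 kept direction and side of the threshold. Those that changed sign were *MATN3* (-0.49), *IHH* (-0.63) and *PTH1R* (-0.01) without Perthes rabbit 4 and control rabbit 2, *IHH* without Perthes rabbit 4 (-0.14) or control rabbit 2 (-0.13), and *PTH1R* with the replicate block (-0.05). The cause was not tested. With 1 rabbit left out, these 3 genes ranged from 0.03 to 1.62, -0.14 to 1.27 and 0.08 to 0.82.

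DESeq2 called higher 3 further cartilage genes, 7 chain synthesis genes, 12 genes of the protease list, 2 hedgehog genes and 2 hypertrophy genes. With 1 rabbit left out, these lists had 0 to 3, 0 to 6, 0 to 10, 0 to 2 and 0 to 1 higher calls, and cartilage genes 0 to 1 lower. The replicate block, which compares only rabbits 1 to 3 of each group, left 0 calls in all genes and in every list. In edgeR's test the smallest adjusted p was then 0.0573, with 1504 genes higher and 1648 lower at an unadjusted p below 0.05. In that fit, 13 of the 16 genes of the protease list were higher at an unadjusted p below 0.05. For rabbits that share a number, deviations correlated at -0.317, 0.161 and -0.238, and for the other pairs at -0.314 to 0.435. With 3 controls these values depend on one another, so they cannot decide whether the numbers mark pairs. No ratio passed under 1 added count or against *COL2A1*, where the same floor limited the adjusted test. With 1 rabbit left out the ratios were not tested, as the exact test cannot go below 0.0571.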
